A study of Mus musculus with 15 samples.

Results

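The miR-200 family was measured by small RNA sequencing in 15 libraries of mouse pancreatic acini, the secretory units of the exocrine pancreas. The family was taken by name as 7 mature miRNAs out of the 1915 in the deposited mature miRNA table: mmu-miR-200a-3p, mmu-miR-200a-5p, mmu-miR-200b-3p, mmu-miR-200b-5p, mmu-miR-200c-3p, mmu-miR-141-3p and mmu-miR-429-3p, written below without the species prefix. All 7 were counted in every library and all 7 passed the filter on low counts, as did 351 miRNAs in all. The acini came from C57BL/6 mice aged 7 to 8 weeks and fell into 5 groups of 3 libraries: caerulein at 100 nM, caerulein at 100 pM, TLC-S at 250 uM, TLC-S at 62.5 uM, and a control with no agent. Caerulein is a peptide that stimulates the cholecystokinin receptor of acinar cells, and TLC-S is the bile acid taurolithocholic acid sulfate. Both are used to induce acinar injury outside the animal, and the comparisons ask which miRNAs differ between stimulated and unstimulated acini and between the doses of 1 agent. The labels mention pooled RNA of independent preparations but do not tie a pool to a library, so p-values here reflect differences between libraries that could be technical replicates.

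The miR-200 family is a group of miRNAs typical of epithelial cells. Its best known targets are the mRNAs of ZEB1 and ZEB2, repressors of E-cadherin that drive the epithelial-mesenchymal transition and that in turn repress the miR-200 loci. A miRNA recognises its targets mainly through its seed, bases 2 to 8, so members of the family with different seeds share only part of their targets. Each hairpin precursor can release a 3p and a 5p arm, of which the 3p arm is the guide strand usually meant by the family's names.

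The mature sequences are shown because the family falls into seed groups that run across its genomic loci. They are credited to RefSeq (GRCm38.p6), which held all 7, and are written 5′ to 3′ with the seed in capitals.
miR-200b-3p: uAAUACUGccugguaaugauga
miR-200c-3p: uAAUACUGccggguaaugaugga
miR-429-3p: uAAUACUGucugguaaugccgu
miR-200a-3p: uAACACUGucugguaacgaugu
miR-141-3p: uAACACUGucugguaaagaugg
miR-200a-5p: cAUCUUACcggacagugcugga
miR-200b-5p: cAUCUUACugggcagcauugga
The seed AAUACUG was shared by miR-200b-3p, miR-200c-3p and miR-429-3p, and the seed AACACUG by miR-200a-3p and miR-141-3p. No other mature mouse miRNA of the RefSeq table had either seed. The 2 seeds differ at a single base, written C4U from miR-200a-3p to miR-200b-3p, with positions counted from 1 at the 5′ end. Within a seed group the most alike members differed at 2 of 22 bases: C17A and U22G from miR-200a-3p to miR-141-3p, and U11G and A22G from miR-200b-3p to miR-200c-3p.

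The loci cut across these groups. Mir200b, Mir200a and Mir429 lie within 1846 bases on the minus strand of chromosome 4 (GRCm38.p6, chr4:156053905-156055750), in an intron of the protein-coding gene Ttll10 and inside the transcript Gm13648, where Mir429 overlaps an exon. Mir200c and Mir141 lie within 477 bases on the minus strand of chromosome 6 (chr6:124717914-124718390), in an intron of the transcript Gm15884. Mir141 also overlaps an exon of the transcript Gm29008. The hairpins of Mir200b and Mir200a, the loci whose arms are both members, are printed with the 5p and 3p arms in capitals.
Mir200b: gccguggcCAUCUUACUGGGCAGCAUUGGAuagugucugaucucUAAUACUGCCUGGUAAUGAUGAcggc
Mir200a: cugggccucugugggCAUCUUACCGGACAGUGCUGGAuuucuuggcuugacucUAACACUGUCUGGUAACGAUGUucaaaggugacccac

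Each library held 535473 to 5087728 counts of mature miRNAs. Acinar miRNAs (miR-148a, the miR-216 group and miR-217, 8 arms) made up 27.2% to 58.2% of the counts. This was the largest share of the cell type lists in every library, so by share the acinar label held with miR-148a-3p counted. Most of the acinar share was miR-148a-3p alone, at 17.6% to 50.5% of the counts. All 8 arms were counted in every library, but so were the markers of most other cell types. Islet and neuroendocrine miRNAs (miR-375-3p, miR-7a-5p and miR-184-3p) made up 5.82% to 14.8% over the libraries. Most of this was miR-375-3p, and whether it came from islet cells was not tested. Without miR-148a-3p the acinar list fell below the islet and neuroendocrine list in some libraries and not in others. In control replicate 1 the acinar list held 27.2% and miR-148a-3p 17.6%, beside 14.3% for the islet and neuroendocrine list. In control replicate 2 these were 33.9%, 18.7% and 12.4%. Mesenchymal miRNAs made up 0.854% to 1.97% and endothelial ones 0.363% to 0.839%. Leukocyte miRNAs reached at most 0.0111% and erythrocyte ones at most 0.0187%, and the 2 arms of miR-142a, a leukocyte miRNA, were the only markers of other cell types at 0 in any library. In such bulk samples, fewer cells of a type and less RNA per cell cannot be told apart. In control replicate 3 miR-148a-3p alone took 50.5% of the counts, against a median of 24.8% over the 15 libraries. Next were TLC-S 250 uM replicate 3 at 42.7% and caerulein 100 pM replicates 3 and 2 at 36.4% and 35.4%.

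The family made up 9.41% ± 2.05 of all miRNA counts (SD, n = 15), between 6.33% in control replicate 3 and 12.2% in TLC-S 62.5 uM replicate 1. Leaving miR-148a-3p out of the total, it made up 13.0% ± 1.97, with a range of 10.0% to 16.7%. By group, the share was 9.95% ± 1.50 with caerulein 100 nM, 8.24% ± 2.51 with caerulein 100 pM, 8.84% ± 1.99 with TLC-S 250 uM, 10.2% ± 1.82 with TLC-S 62.5 uM and 9.83% ± 3.07 in controls (SD, n = 3 each). All 5 groups overlapped, and none of the 6 differences passed a two-sided exact permutation test (exact p of 0.4 to 1, all 1 after Benjamini-Hochberg adjustment over 18 ratio and share tests). With 3 libraries against 3 that test cannot give a p below 0.1.

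Most of the family's counts came from 3 members. miR-200a-3p held 44.5% ± 6.15 of the family's counts, miR-200b-3p 40.3% ± 4.73 and miR-200c-3p 11.3% ± 1.59 (SD, n = 15). In CPM (counts scaled to a common library size after TMM normalisation), miR-200a-3p averaged 41515 ± 9847 and miR-200b-3p 37293 ± 6822, and both ranked from 4th to 9th among all miRNAs in every library. miR-200c-3p averaged 10432 ± 1556 CPM and ranked from 15th to 22nd. miR-429-3p followed at 1287 ± 224 CPM, miR-141-3p at 989 ± 200, miR-200a-5p at 908 ± 300 and miR-200b-5p at 422 ± 129. All are 22 or 23 bases long, so no correction for length was made, and read counts of different miRNAs were not calibrated against a standard.

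The steps in this order differed in how firmly they held within libraries. miR-200b-3p exceeded miR-200c-3p in 15 of 15 libraries and miR-200c-3p exceeded miR-429-3p in 15 of 15. miR-429-3p was above miR-141-3p in 14 of 15, and miR-200a-5p above miR-200b-5p in 14 of 15. The neighbours at the top did not separate: miR-200a-3p was above miR-200b-3p in 10 of 15 libraries, with a log2 ratio of 0.14 ± 0.37 (SD). Nor did miR-141-3p and miR-200a-5p, at 10 of 15 libraries and a log2 ratio of 0.17 ± 0.72.

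**Figure D1:**
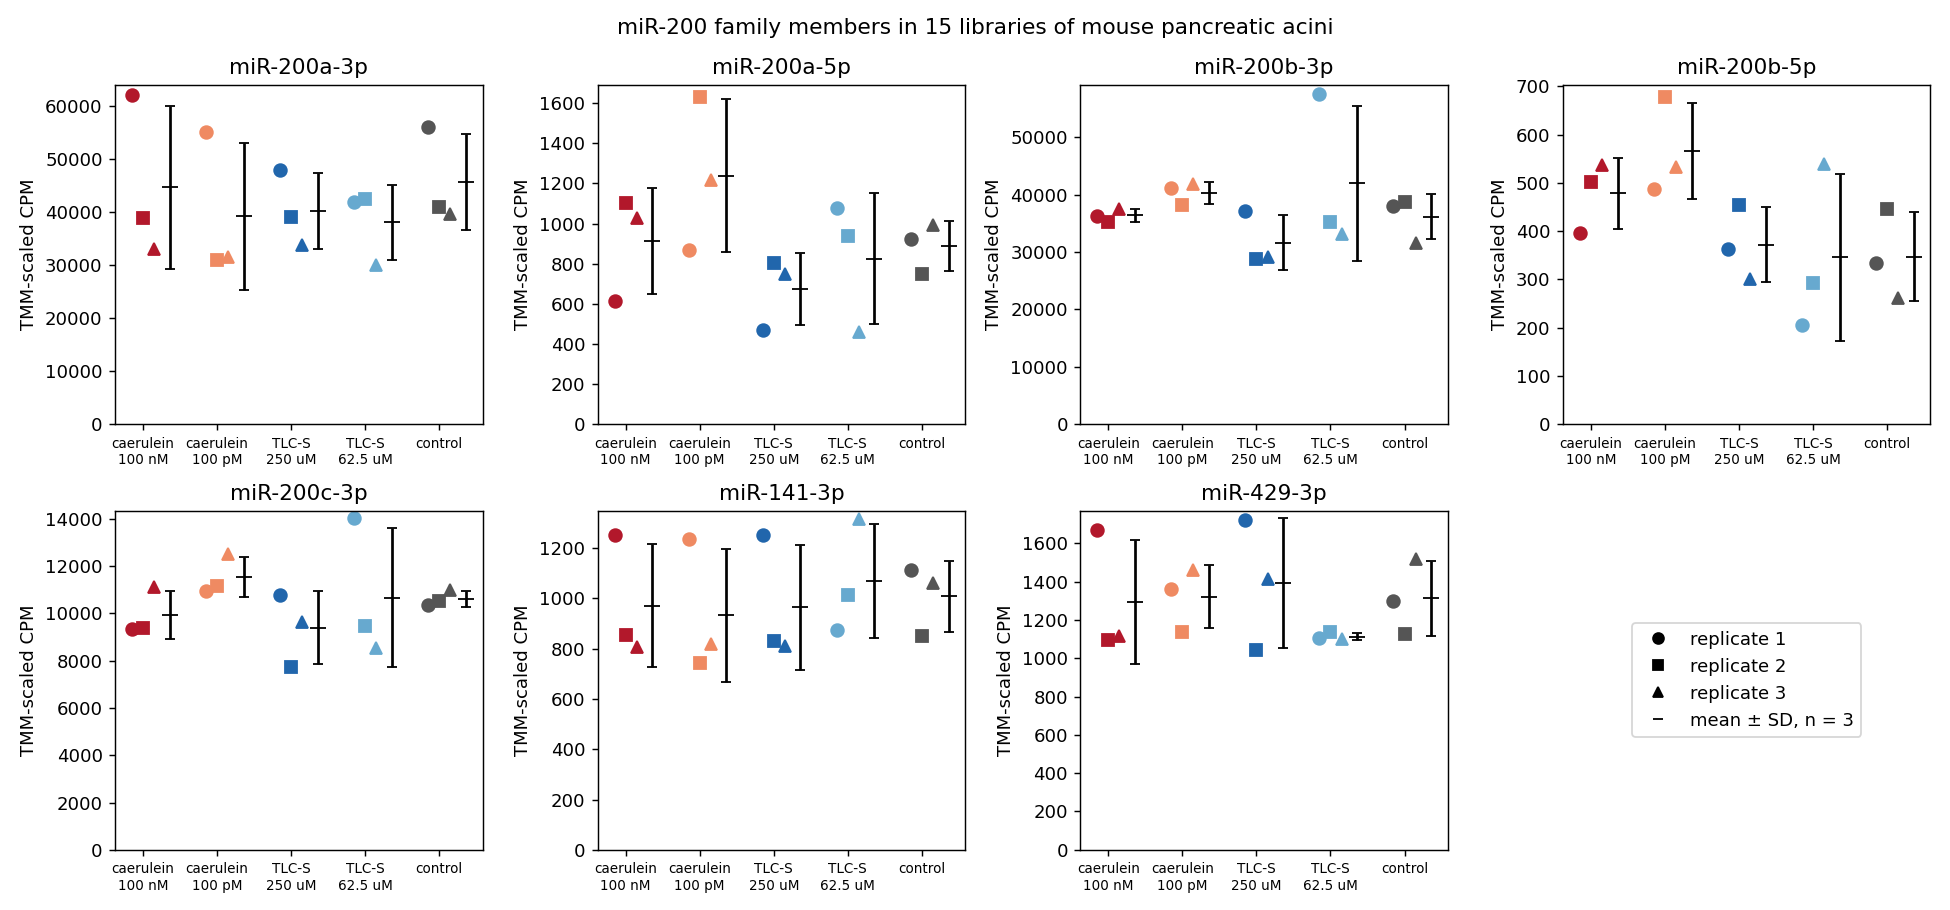
TMM-scaled CPM of the 7 members (vertical axes from 0) in the 15 libraries, with a marker shape per replicate number, and the mean ± SD of each group of 3. Among the 6 comparisons the groups fail to overlap for miR-200b-5p (caerulein 100 pM against control) and miR-200b-3p (caerulein doses); miR-200a-3p is highest in replicate 1 of 4 groups, and TLC-S 62.5 uM replicate 1 stands at the top for miR-200b-3p (57592 CPM) and miR-200c-3p (14030 CPM).

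The 3p members varied less between libraries than most other miRNAs. The SD of log2 CPM over the 15 libraries was 0.21 for miR-200c-3p, at percentile 3.70 of the 351 miRNAs tested, 0.24 for miR-200b-3p at percentile 6.55, and 0.33 for miR-200a-3p at percentile 23.6. For miR-429-3p the SD was 0.24, at percentile 6.84, and for miR-141-3p 0.28, at percentile 15.4. Among the members the 5p arms spread more, with an SD of 0.49 for miR-200a-5p and 0.47 for miR-200b-5p, at percentiles 58.4 and 53.8. This did not hold for every 5p arm of these hairpins. Outside the members, miR-141-5p had an SD of 0.27 at percentile 13.4. For miR-200c-5p, with 0 to 26 counts per library, it was 1.00 at percentile 96.6. These percentiles are a description and were not tested. They were not matched for level, and the 351 include miRNAs with far fewer counts than the 3p members.

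Of the other arms of the same hairpins, miR-141-5p averaged 63.1 ± 12.4 CPM (SD, n = 15). miR-200c-5p averaged 4.16 ± 3.34 CPM, with 0 to 26 counts per library, and was at 0 in 1 library. miR-429-5p had a single count, in 1 control library, and was not tested.

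With caerulein at 100 nM the abundant members averaged close to their control levels. miR-200b-3p stood at 36296, 35264 and 37557 CPM with caerulein 100 nM, against 37995, 38798 and 31624 CPM in controls, a log2 difference of 0.01 with a 95% interval of -0.45 to 0.47. The caerulein libraries lay inside the range of the controls. miR-200c-3p averaged 9936 ± 1016 CPM with caerulein 100 nM and 10610 ± 325 CPM in controls (SD, n = 3 each; log2 difference -0.09). miR-200a-3p had 62094, 38914 and 32999 CPM with caerulein 100 nM, against 55976, 41012 and 39671 CPM in controls. Each group thus had 1 high library, the one numbered 1, and the log2 difference was -0.03 (interval -0.58 to 0.52). The member with the largest difference was miR-200b-5p, at 478 ± 72.9 CPM with caerulein 100 nM and 347 ± 92.4 CPM in controls (log2 difference 0.46, SE 0.30, edgeR's quasi-likelihood test, adjusted p = 0.984). The median log2 difference of the 7 was -0.02, beside 0.03 over all miRNAs, and 3 of 7 were above 0, as were 52.7% of all. The groups did not overlap for 0 of 7 members and for 6.55% of all. By edgeR 0 of 7 members were called at an adjusted p under 0.05, where 0% of all 351 miRNAs were, and 0 of 7 had an unadjusted p under 0.05, where 3.42% of all did.

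With caerulein at 100 pM both 5p members had the highest average of the 5 groups, though neither passed the test. This was not particular to chromosome 4, since the 5p arms of the chromosome 6 hairpins were also highest on average in this group. miR-141-5p averaged 69.9 CPM with caerulein 100 pM and 65.6 CPM in controls (log2 difference 0.10, SE 0.28). For miR-200c-5p, with few counts, these were 6.41 and 2.85 CPM (log2 difference 1.21, SE 0.81). Both had an edgeR adjusted p of 0.942, and the groups overlapped. miR-200b-5p had 487, 678 and 533 CPM with caerulein 100 pM, against 334, 445 and 262 CPM in controls. All 3 treated libraries lay above all 3 controls, and the groups did not overlap for 1 of 7 members, where this was so for 10.3% of all miRNAs. On the log2 scale this was a difference of 0.71 (SE 0.30, interval 0.08 to 1.33). Its edgeR p of 0.0275 gave an adjusted p of 0.722 over all miRNAs, with a range over the alternatives that went no lower than 0.323, so it did not pass. Scaling by library totals gave 0.39. miR-200a-5p had 868, 1633 and 1215 CPM with caerulein 100 pM, against 921, 750 and 992 CPM in controls. Here 2 of the 3 treated libraries lay above the controls (log2 difference 0.48, SE 0.31, edgeR adjusted p = 0.942). The difference was 0.22 with scaling by library totals and 0.18 without caerulein 100 pM replicate 2. The 3p arms of the same hairpins differed by 0.16 for miR-200b-3p and by -0.22 for miR-200a-3p on the log2 scale, and the value for miR-200b-3p became -0.11 when libraries were scaled by their totals, a scaling that moved the median of all miRNAs by -0.24. The family's median was 0.12, beside 0.01 over all miRNAs, with 5 of 7 members above 0, as were 51.3% of all. At an adjusted p under 0.05, 0 of 7 members were called by edgeR, where 0% of all miRNAs were. At an unadjusted p under 0.05 there was 1 of 7, where 6.84% of all passed.

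With TLC-S at 250 uM the fitted differences were below 0 for 5 of 7 members, and none passed the test. miR-200b-3p had 37177, 28705 and 29062 CPM with TLC-S 250 uM, against 37995, 38798 and 31624 CPM in controls, a log2 difference of -0.19 (interval -0.65 to 0.27). miR-200a-5p had 467, 802 and 746 CPM with TLC-S 250 uM, against 921, 750 and 992 CPM in controls. The groups overlapped (log2 difference -0.40, SE 0.31, edgeR adjusted p = 0.999). miR-429-3p averaged 1393 ± 339 CPM with TLC-S 250 uM and 1313 ± 196 CPM in controls. The median log2 difference of the 7 members was -0.18, beside -0.03 over all miRNAs tested. Above 0 were 2 of 7 members and 45% of all, and the groups did not overlap for 0 of 7 members and 7.12% of all. edgeR called 0 of 7 members at an adjusted p under 0.05, where 0% of all were called, and 0 of 7 at an unadjusted p, where 1.14% of all passed.

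At the lower TLC-S dose of 62.5 uM, a single library set the levels of miR-200b-3p and miR-200c-3p apart. miR-200b-3p had 57592, 35214 and 33054 CPM with TLC-S 62.5 uM, against 37995, 38798 and 31624 CPM in controls. miR-200c-3p had 14030, 9451 and 8524 CPM with TLC-S 62.5 uM, against 10337, 10525 and 10970 CPM in controls. In both cases replicate 1 lay above all controls and the other treated libraries lay below the control median. The log2 differences were 0.22 (SE 0.22) and 0.01 (SE 0.22), and without that library they were -0.07 and -0.22. In the same library miR-200b-5p was the lowest of the 15, at 205 CPM. miR-429-3p had 1106, 1135 and 1098 CPM with TLC-S 62.5 uM, against 1298, 1125 and 1516 CPM in controls, a log2 difference of -0.24 (SE 0.24). The median of the 7 was -0.01, as over all miRNAs, with 3 of 7 above 0, as were 48.7% of all. The groups did not overlap for 0 of 7 members and for 12.3% of all. edgeR called 0 of 7 members at an adjusted p under 0.05, where 0.57% of all were called, and 0 of 7 at an unadjusted p, where 7.41% of all passed.

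**Figure D2:**
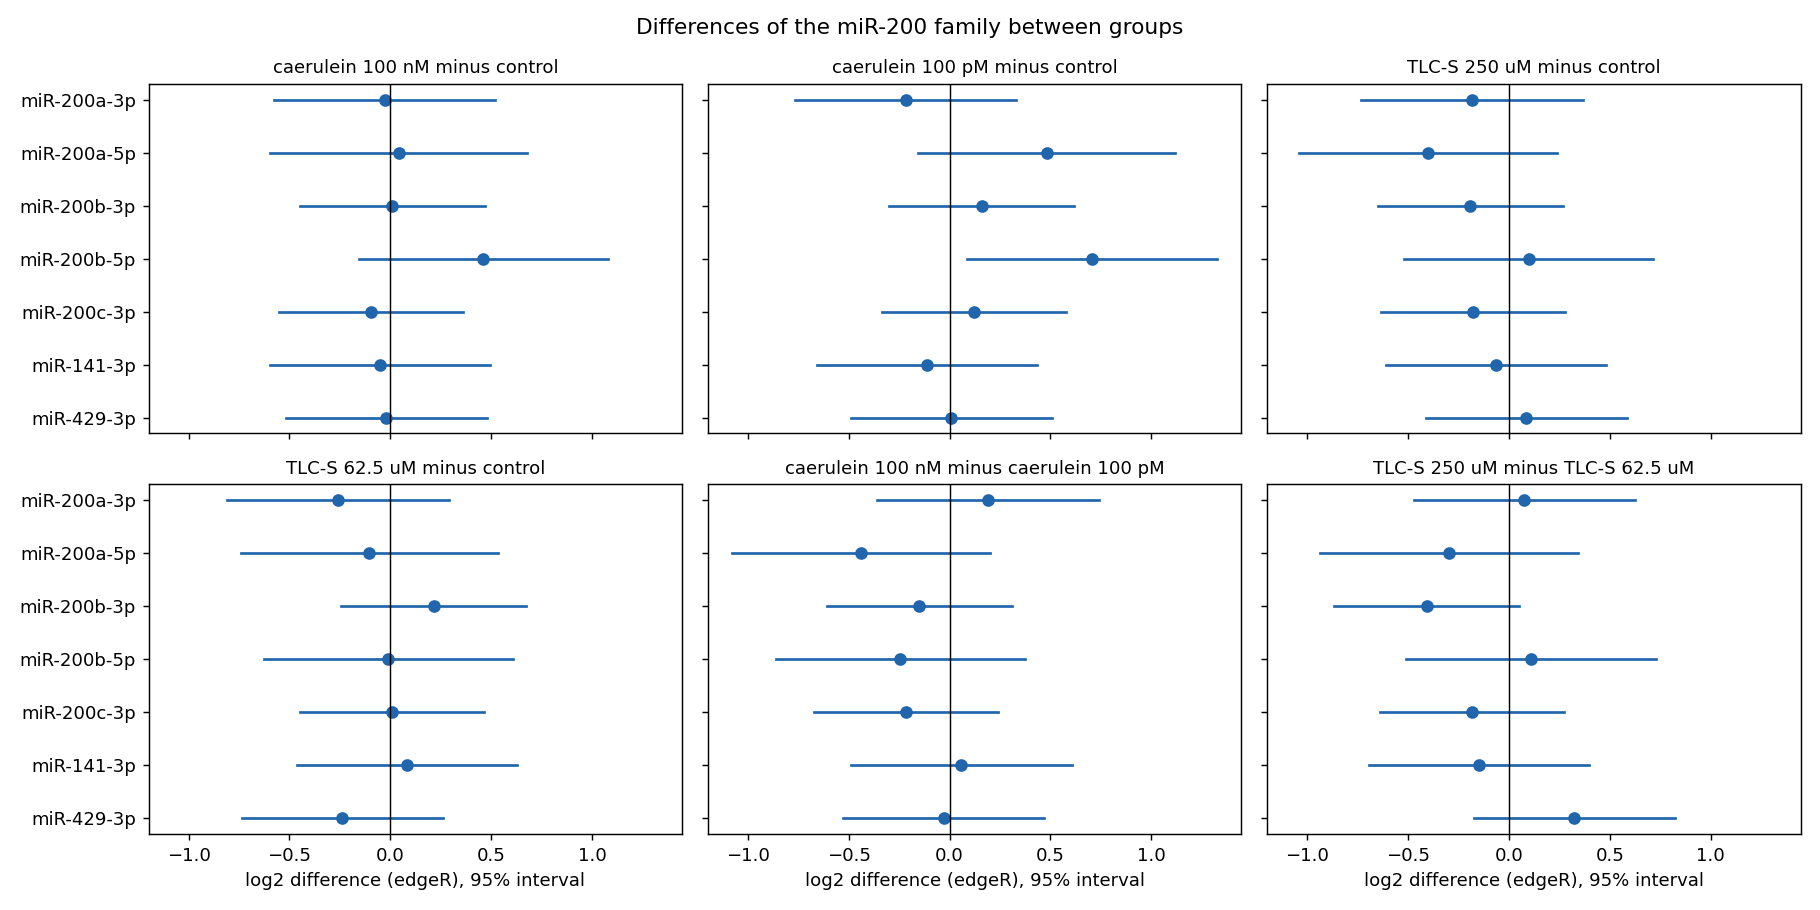
Log2 differences of the 7 members in 6 comparisons (horizontal axes, edgeR estimate as a point and 95% interval as a line), with 1 panel per comparison. 41 of the 42 intervals hold 0; the exception is miR-200b-5p with caerulein 100 pM against controls.

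Between the doses of caerulein, the fitted differences, 100 nM over 100 pM, were below 0 for 5 of 7 members, none of which passed the test. miR-200b-3p had 36296, 35264 and 37557 CPM at 100 nM, against 41129, 38157 and 41780 CPM at 100 pM. These groups did not overlap, which held for 1 of 7 members and for 5.7% of all miRNAs. The fitted difference was -0.15 (log2, SE 0.22), and it became 0.15 when libraries were scaled by their totals, a scaling that moved the median of all miRNAs by 0.29. miR-200a-5p averaged 914 ± 265 CPM at 100 nM and 1238 ± 383 CPM at 100 pM (log2 difference -0.44, SE 0.31). The median of the 7 was -0.15, beside -0.02 over all miRNAs, with 2 of 7 above 0, as were 48.4% of all. edgeR called 0 of 7 members at an adjusted p under 0.05, where 0% of all were called, and 0 of 7 at an unadjusted p, where 1.71% of all passed.

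Between the doses of TLC-S, miR-200b-3p had the largest difference of the family. It averaged 31648 ± 4791 CPM at 250 uM and 41953 ± 13586 CPM at 62.5 uM (log2 difference -0.41, SE 0.22, edgeR adjusted p = 0.717). The high mean at 62.5 uM rested on replicate 1, named above. miR-429-3p had the opposite sign, with 1393 ± 339 CPM at 250 uM and 1113 ± 19.1 CPM at 62.5 uM (log2 difference 0.32, SE 0.24). The median of the 7 was -0.15, beside 0.01 over all miRNAs, with 3 of 7 above 0, as were 51.6% of all. The groups did not overlap for 0 of 7 members and for 12% of all. edgeR called 0 of 7 members at an adjusted p under 0.05, where 1.14% of all were called, and 0 of 7 at an unadjusted p, where 8.83% of all passed.

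A test for any difference among the 5 groups also called 0 of 7 members (edgeR's quasi-likelihood F test), where 0.855% of all miRNAs were called. Its lowest unadjusted p among the members was 0.0849, for miR-200b-5p, with an adjusted p of 0.754, and at an unadjusted p under 0.05 there were again 0 of 7, where 7.41% of all passed. DESeq2 called 0 of 7 in each of the 6 comparisons. The precision behind these counts is given by the 95% intervals, which reached 0.46 to 0.64 on either side of the estimate on the log2 scale. For miR-200c-3p, the member with the narrowest intervals, they spanned 0.68-fold to 1.28-fold for caerulein 100 nM over control and 0.65-fold to 1.21-fold for TLC-S 250 uM over control. The 4 comparisons with controls share the control libraries.

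The list of other epithelial miRNAs gave 1 call, while 3 of its 5 members had a fitted difference of the opposite sign in that comparison. In this list of miR-203-3p, miR-205-5p and the miR-183, miR-182 and miR-96 arms, 0 of 5 passed the test in any comparison except TLC-S 250 uM against 62.5 uM. There 1 of 5 was called, where 1.14% of all miRNAs were, and the groups did not overlap for 3 of 5, where 12% of all did not. miR-203-3p, a miRNA known from differentiating epidermis, was lower at 565 ± 42.2 CPM at 250 uM, against 1095 ± 318 CPM at 62.5 uM (log2 difference -0.96, SE 0.24, edgeR adjusted p = 0.0449). The log2 difference was 0.15 for miR-182-5p and 0.15 for miR-183-5p, both also without overlap, 0.20 for miR-96-5p and -0.44 for miR-205-5p (edgeR adjusted p of 0.906 to 0.941), and the median of the 5 was 0.15, beside 0.01 over all miRNAs. The call of miR-203-3p ended without any 1 of the 6 TLC-S libraries (adjusted p of 0.0513 to 0.587) and held in 3 of 23 alternatives. Its adjusted p ranged from 0.00505 to 0.587 over all of them.

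The 3p arm dominated both hairpins whose arms are members. Over the 15 libraries, miR-200a gave 47.0 3p reads for each 5p read, as a geometric mean, with a range of 18.9 to 102. miR-200b gave 91.4, with a range of 56.3 to 281. The highest miR-200b ratio belonged to TLC-S 62.5 uM replicate 1, the library with the most miR-200b-3p and the least miR-200b-5p. A ratio of the arms within a library does not depend on scaling between libraries. With caerulein 100 pM the log2 ratio of miR-200a was 5.99, 4.24 and 4.69, against 5.92, 5.77 and 5.32 in controls, a difference of -0.70 (SE 0.54). For miR-200b it was 6.40, 5.81 and 6.29 with caerulein 100 pM, against 6.83, 6.44 and 6.91 in controls, a difference of -0.56 (SE 0.46). For miR-200a 2 treated libraries lay below all 3 controls, and for miR-200b all 3 did. The groups thus did not overlap for 1 of the 2 hairpins, as for 15.7% of all hairpins. limma, fitted over 89 hairpins with both arms measured, gave an adjusted p of 0.713 for both. In the other 5 comparisons the groups overlapped for both hairpins. Of all hairpins, 8.99% did not overlap with caerulein 100 nM against control, 8.99% with TLC-S 250 uM and 7.87% with TLC-S 62.5 uM against control, 5.62% between the caerulein doses and 12.4% between the TLC-S doses. limma called 0 of the 2 hairpins in any of the 6 comparisons, where 0% of all were called. At an unadjusted p under 0.05 there were also 0 of 2, where the share of all hairpins was 6.74% and 5.62% for caerulein 100 nM and 100 pM against control and 3.37% and 1.12% for TLC-S 250 uM and 62.5 uM against control. Between the doses it was 2.25% for caerulein and 4.49% for TLC-S.

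The chromosome 4 members outweighed those of chromosome 6 in 15 of 15 libraries. The 5 members from chromosome 4 held 7.11 times the counts of the 2 members from chromosome 6, as a geometric mean, with a range of 5.72 to 9.55 over the 15 libraries. By group the log2 ratio was 2.93 ± 0.32 with caerulein 100 nM, 2.71 ± 0.27 with caerulein 100 pM, 2.84 ± 0.19 with TLC-S 250 uM, 2.81 ± 0.11 with TLC-S 62.5 uM and 2.85 ± 0.23 in controls (SD, n = 3 each). The groups overlapped in all 6 comparisons (exact permutation p of 0.5 to 1, adjusted p = 1). The library numbered 1 had a higher ratio than the one numbered 3 in 5 of 5 groups, but than the one numbered 2 in only 3 of 5.

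On average the seed groups held nearly equal read counts, though their ratio varied between libraries. Members with the seed AAUACUG held 1.17 times the counts of those with AACACUG, as a geometric mean, with a range of 0.747 to 1.73 and a ratio above 1 in 11 of 15 libraries. The log2 ratio averaged 0.11 ± 0.50 with caerulein 100 nM, 0.46 ± 0.47 with caerulein 100 pM, 0.05 ± 0.15 with TLC-S 250 uM, 0.43 ± 0.34 with TLC-S 62.5 uM and 0.06 ± 0.24 in controls (SD, n = 3 each). The groups overlapped in all 6 comparisons (exact permutation p of 0.2 to 1, adjusted p = 1). The largest differences were 0.40 for caerulein 100 pM over control (SE 0.30) and -0.38 for TLC-S 250 uM over 62.5 uM (SE 0.22). With 3 libraries against 3 the test cannot give a p below 0.1, so it cannot decide whether such differences are real.

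**Figure D3:**
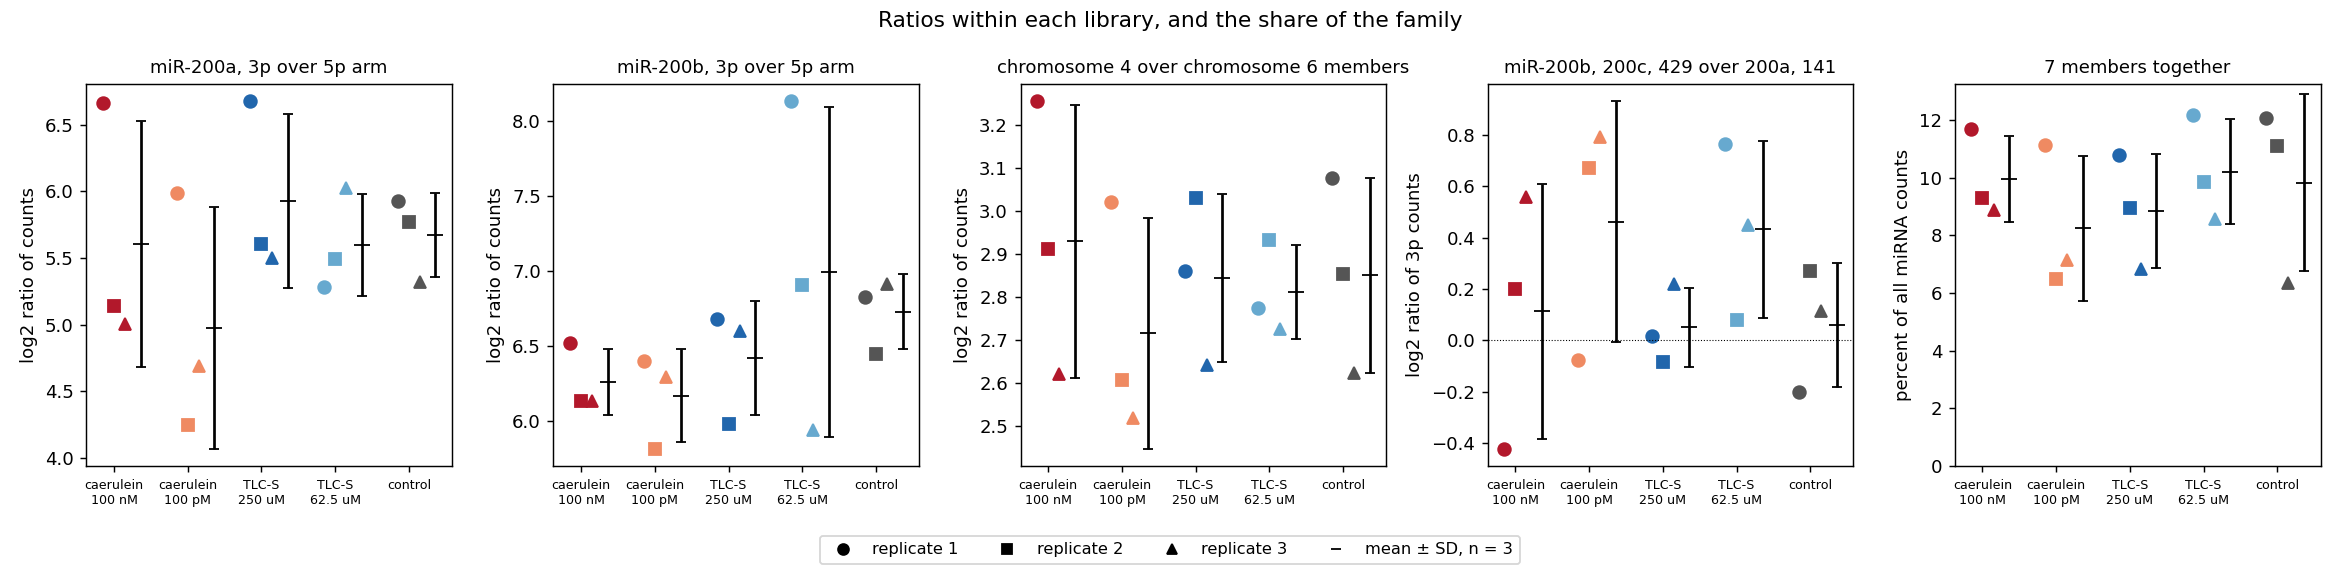
Log2 ratios of counts within each library and the family's percent of all miRNA counts (vertical axes; panels from left: arms of miR-200a, arms of miR-200b, chromosome 4 over chromosome 6 members, 1 seed over the other, share of the 7 members), by library with the mean ± SD of each group of 3. The groups of each comparison overlap except for the arms of miR-200b with caerulein 100 pM against control; the highest miR-200b arm ratio, 8.13, is TLC-S 62.5 uM replicate 1.

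Across the 15 libraries the closest pair of members came from different chromosomes. miR-200b-3p and miR-200c-3p, which share a seed, had a Pearson's r of 0.82 between their log2 CPM (permutation p = 0.00023, adjusted p = 0.00483 over the 21 pairs) and a Spearman's rho of 0.73 (permutation p = 0.00279, adjusted p = 0.0586). The log2 ratio of this pair had an SD of 0.14 over the libraries, the smallest of the 21. Its r was 0.83 after the group means were taken out and 0.86 after the means of each replicate number were taken out. Without the 2 libraries farthest from the median r was 0.58. Among all 350 other miRNAs miR-200c-3p was the 2nd most alike to miR-200b-3p, and the reverse was also so. The first in both was miR-24-3p (r of 0.82 and 0.83), so the likeness was not particular to the family.

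Neither locus nor seed sorted the other 3p pairs by their correlation in value. miR-200a-3p and miR-200b-3p, whose hairpins lie side by side on chromosome 4, had an r of 0.19 (rho 0.16) and a log2 ratio SD of 0.37, and the r was -0.55 with the means of each replicate number taken out. miR-200c-3p and miR-141-3p, neighbours on chromosome 6, had an r of -0.22 (rho -0.36), or -0.63 with those means taken out, and a log2 ratio SD of 0.39. The permutation p-values of these r were 0.515 and 0.439, both 0.675 after adjustment. miR-200a-3p and miR-141-3p, of 1 seed and different chromosomes, had an r of 0.59 (permutation p = 0.0231, adjusted p = 0.162) and a rho of 0.55 (permutation p = 0.0357, adjusted p = 0.150); r was 0.46 without the 2 farthest libraries and 0.41 with those means taken out. The remaining pairs with a shared seed or locus all held miR-429-3p: r was 0.45 with miR-200a-3p of its own locus, 0.19 with miR-200c-3p of its own seed, and -0.07 with miR-200b-3p, which shares both. With the means of each replicate number taken out these were 0.43, -0.08 and -0.43. The 3p pairs that share neither seed nor locus reached as high. Here r was 0.48 for miR-141-3p with miR-429-3p, -0.02 for miR-200a-3p with miR-200c-3p and -0.04 for miR-200b-3p with miR-141-3p. With the means of each replicate number taken out these were 0.20, -0.43 and -0.50. The difference between all these correlations was not tested.

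**Figure D4:**
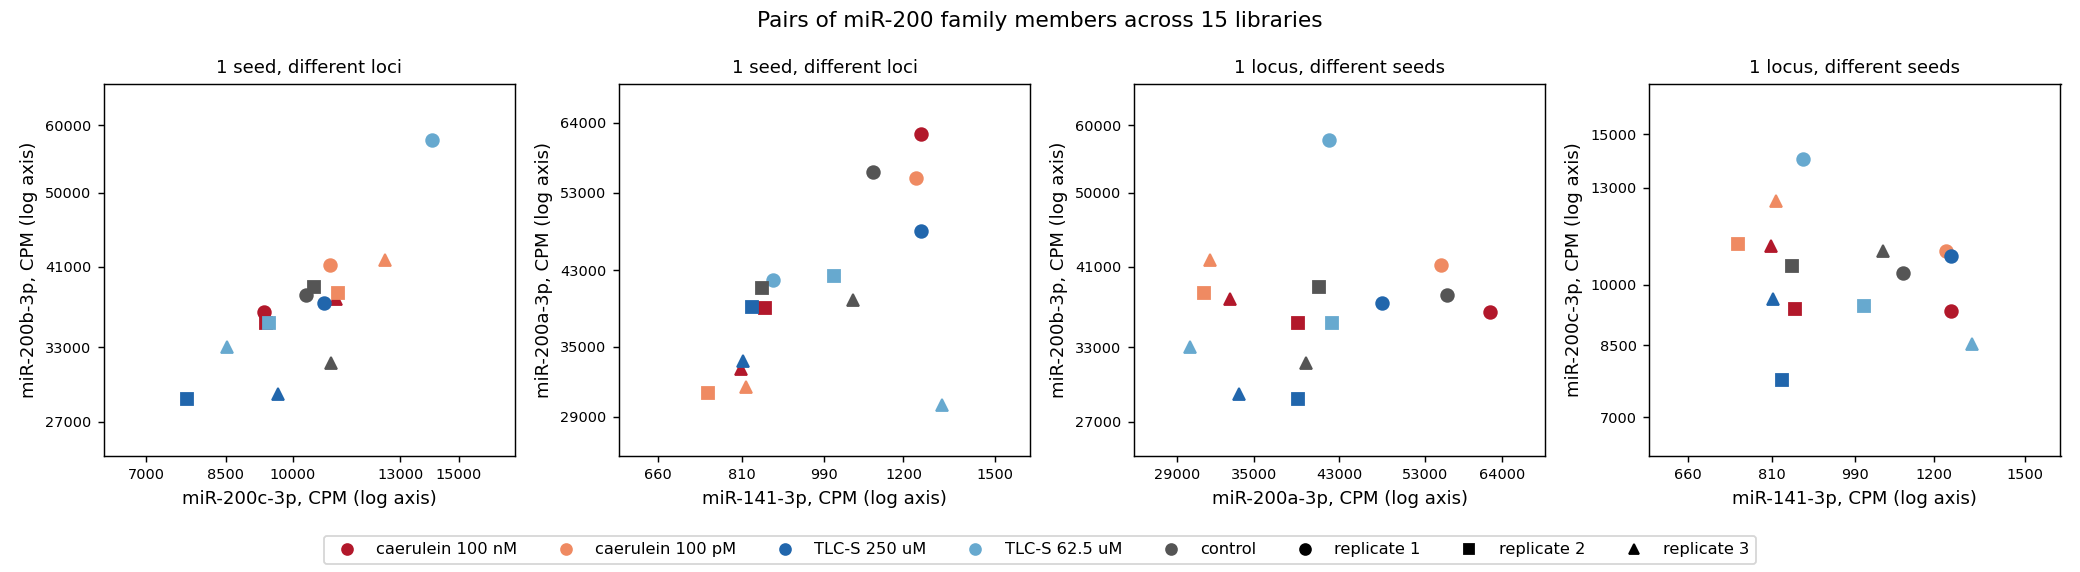
CPM of pairs of 3p members against each other in the 15 libraries (both axes log scaled), coloured by group and shaped by replicate number. miR-200b-3p and miR-200c-3p lie along a line (r = 0.82), whereas the 2 pairs shown from 1 locus scatter (r = 0.19 and r = -0.22). The other pair shown of 1 seed has r = 0.59. Pairs with miR-429-3p are not shown. Their r was 0.45 with miR-200a-3p (same locus), 0.19 with miR-200c-3p (same seed) and -0.07 with miR-200b-3p (both).

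A fractional count arises where a read is divided between features, and all 5 3p members had such counts. Fractional parts were compared after rounding to 2 decimals. In the deposited table of miRNAs by precursor, miR-200a-3p and miR-141-3p had a fractional count in 9 of 15 libraries, with the same fractional part in 9 of 9. For miR-200b-3p and miR-200c-3p, either was fractional in 10 libraries and the fractional parts were equal in 4 of them. Pairs of different seeds had equal parts too: miR-429-3p in 5 of 9 with miR-200a-3p and in 5 of 9 with miR-141-3p. The remaining 3p pairs had equal parts in 2 libraries each. The 5p arms were fractional in 0 libraries. How many reads were divided cannot be read from these fractions, and their part in the correlations was not tested.

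Of the 21 pairs 12 had an r below 0, and 1 of these passed the threshold by Pearson's r; by Spearman's rho 0 of the 21 pairs passed. miR-200a-5p and miR-141-3p had an r of -0.71 (permutation p = 0.00251, adjusted p = 0.0264) and a rho of -0.62 (permutation p = 0.0165, adjusted p = 0.0949). Without the 2 farthest libraries r was -0.51, and it was -0.83 with group means taken out and -0.68 with the means of each replicate number taken out. The libraries with the least miR-200a-5p, TLC-S 62.5 uM replicate 3 (459 CPM), TLC-S 250 uM replicate 1 (467 CPM) and caerulein 100 nM replicate 1 (612 CPM), held 1317, 1253 and 1252 CPM of miR-141-3p, the 3 highest values of that miRNA.

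Libraries with the number 1 differed from the others of their group in miR-200a-3p. Its CPM lay between 41927 and 62094 in the 5 libraries numbered 1, between 30928 and 42333 in those numbered 2 and between 29901 and 39671 in those numbered 3. In TLC-S 62.5 uM alone the library numbered 1 was not the highest of its group. For miR-141-3p the medians were 1236 CPM in libraries numbered 1, 850 in those numbered 2 and 818 in those numbered 3, and for miR-200b-3p 37995, 35264 and 33054 CPM. The share of the 7 members in all counts was highest in the library numbered 1 in 5 of 5 groups. Each number occurs once in every group, so the numbers are balanced over the comparisons.

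The miRNAs most alike to the mean of the 5 3p members over the 15 libraries were miR-802-3p (r = 0.87), miR-17-5p (r = 0.79), miR-191-5p (r = 0.78), miR-423-3p (r = 0.75) and miR-29b-3p (r = 0.75), out of 344 others. These values are a description, since all come from the same 15 libraries and share their scaling.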

How the data were processed

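Small RNA libraries of total RNA (mirVana kit, Illumina HiSeq, per the labels' protocols) were processed by the authors with cutadapt and Bowtie against GRCm38/mm10, per the submitters' processing notes. Neither their versions nor the program that counted reads is given in the sources used here. The authors deposited estimated counts per mature miRNA, whole numbers that lie within 0.5 of the sums of a deposited table of fractional counts per precursor, and a table of RPM (reads scaled to a fixed sum per library). The mature counts were analysed, and the RPM values served as an alternative.

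Counts were scaled by TMM, filtered with filterByExpr (minimum count 10) and fitted in 1 model of 5 group means with edgeR 4.0.16 (quasi-likelihood, R 4.3.3), with Benjamini-Hochberg adjustment over the 351 miRNAs tested and a threshold of 0.05. CPM are TMM-scaled; log2 CPM used a prior count of 2. Arm ratios, log2((3p + 0.5)/(5p + 0.5)), were fitted with limma 3.58.1. Ratios and shares were compared by exact permutation and correlations by 100000 permutations (scipy 1.17.1). Scripts were tested on simulated data. Alternatives were DESeq2 1.42.0, other scalings, filters and pseudocounts, RPM with limma, a replicate block and leaving out each library. All counts were taken per library, from 535473 to 5087728; replicates differed by far more than counting error (chi-square per degree of freedom of 62.9 to 1852), so none was a repeat deposit. Replicate numbers were given in accession order, which follows 3 runs of library codes in the titles, each with 1 library per group; the labels do not say whether a run is a batch. All 7 members were named in every comparison; of other lists, those past the threshold; and the 5 miRNAs most alike to the 3p members. Members and lists were chosen with earlier results of these data known. mm10 and the annotation used for loci are GRCm38.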

Additional observations from a re-analysis of the deposited data

How the results depend on the processing

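No member passed the threshold in any of the 6 comparisons under any of 23 alternative fits (966 member differences, smallest adjusted p of 0.323), nor in the F test (smallest adjusted p of 0.213), and no arm ratio passed (smallest adjusted p of 0.259). With the replicate block, which pairs libraries by number, 0 members were called and the smallest adjusted p was 0.398; 15 of 30 same-number pairs of libraries correlated over 0.1 (range -0.12 to 0.40), and 11 of 15 libraries correlated best with one of their own number, a hint from the data. The library codes in the titles form 3 runs with 1 library of each group, which the numbers follow, but the labels do not say what a run is. Over all miRNAs, calls for TLC-S 62.5 uM against control numbered 2, and 0 to 5 over the alternatives; for TLC-S 250 uM against 62.5 uM 4, and 1 to 4; and for the F test 3, and 1 to 10. DESeq2 called 4, 4 and 7 in these, and 1 for caerulein 100 nM against control where edgeR called 0.

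The sign of a member's difference was the other one in 122 of the 966, of which 14 moved by over 1 SE. Scaling by library totals gave, for caerulein 100 pM against control, -0.11 for miR-200b-3p and -0.12 for miR-200c-3p, and for caerulein 100 nM against 100 pM 0.15 for miR-200b-3p, 0.0763 for miR-200b-5p, 0.0880 for miR-200c-3p and 0.26 for miR-429-3p. limma on log2(RPM + 1) gave -0.10 for miR-200c-3p in the first, and 0.16, 0.0702, 0.0909 and 0.26 for the same 4 in the second; the scaling by totals is shared by both. Leaving out 1 library at a time, TLC-S 62.5 uM against control ranged from -0.0665 to 0.31 for miR-200b-3p, from -0.22 to 0.0896 for miR-200c-3p and from -0.31 to 0.79 for the arm ratio of miR-200b, and TLC-S 250 uM against 62.5 uM from -0.27 to 0.0598 for miR-200c-3p. The turned signs came without TLC-S 62.5 uM replicate 1. With 3 libraries a group, the 95% intervals of the members reached at least 0.46 on either side on the log2 scale.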
